A study of Mus musculus with 62 samples.

Results

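At week 4 after injection, whole hearts of mice carrying melanoma cells that cause cachexia (CAC) were set against hearts of mock-injected mice (Con). The comparison was between the 5 CAC and 4 Con libraries of that week, 9 of the 62 libraries of the series. The fifth Con library, replicate 2, was left out as degraded, because 89.1% of its TPM came from mitochondrially encoded transcripts. TPM is an abundance per transcript length scaled to the same total in each library. The 5 libraries of hearts from mice with melanoma cells that do not cause cachexia (NCAC) at week 4, and the CAC and Con libraries of weeks 2, 6 and 8, are given where they show how the comparison differs. All mice were female and 2 months old, and no genotype or other treatment distinguishes the groups in the labels. The labels give the strain C57BL6/J, whereas the design text speaks of NCI Ath/nude mice, so the strain is uncertain. Nude mice lack mature T cells. CAC and NCAC mice received different melanoma cells, so cachexia and the injected cell line cannot be told apart. The kit protocol calls the libraries biological replicates. Each p-value reflects the spread between the libraries alone, and limma moderates the spread of each gene toward that of genes of similar level. For CAC against Con, the fit of each gene took that spread from 14 week 4 libraries, the 5 NCAC libraries among them.

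Cachexia is the loss of muscle and fat seen with some cancers, and the heart can lose mass with it. Tumours and the immune system release cytokines of the interleukin-6 family, which bind receptors that share the subunit gp130 and activate the transcription factor STAT3. STAT3 switches on acute phase genes, best known in the liver, and its own feedback inhibitor SOCS3. Metallothioneins, small proteins that bind zinc and copper, rise under metals, glucocorticoids and the same cytokines. A heart under load is known for higher natriuretic peptides and fetal sarcomere genes, and a wasting muscle for higher ubiquitin ligases.

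The 14 week 4 libraries used had 17492 to 18046 gene symbols above 0. Libraries were rescaled by the median of ratios, with factors of 0.985 to 1.07 in CAC and 0.923 to 0.996 in Con. Values below are rescaled TPM, listed for CAC replicates 1 to 5 and Con replicates 1, 3, 4 and 5. A log2 difference is the mean of log2(rescaled TPM + 1) in CAC minus that in Con, which understates the change of low genes, and a gene is called when its limma adjusted p is below 0.05. The deposited TPM hold no read depth, so the depth is unknown and no counting intervals are given. Cardiomyocyte markers were high in both groups, with Myh6 at 5151 to 6816 TPM in CAC and 6402 to 6748 TPM in Con, and Tnnt2 at 3075 to 4829 TPM in CAC and 2701 to 3128 TPM in Con. CAC replicate 2 stood farthest from Con in 59.9% of the genes called higher and 65.8% of those called lower. Mitochondrially encoded transcripts took up 54.2 ± 1.39% of the TPM of CAC libraries (SD, n = 5), against 57.7 ± 1.03% of those of Con libraries (SD, n = 4). The difference of -3.45 percentage points had p = 0.00794 in an exact two-sided permutation test, the smallest p that the 126 possible arrangements allow. In NCAC libraries the share was 57.5 ± 1.95% (SD, n = 5).

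The 12 largest rises and 12 largest falls were taken from called genes whose CAC and Con ranges were apart. Separation of these genes was thus fixed by the choice. Among the 12 largest rises, 3 genes had a match to the STAT motif TTCNNNGAA in the 250 bases before the RefSeq start of the gene, and the metallothionein genes had matches to the metal response core TGCGCNC or TGCACNC. Printed are the 3 promoters with a STAT match and those of the metallothionein genes, which are known for metal response elements. They come from RefSeq on GRCm38.p6, run 5′ to 3′ on the strand of the gene, and capitals mark each match on either strand. They lie at chr11:117969367-117969616 (minus strand) for Socs3, chr14:30886226-30886475 (plus) for Itih4, chr12:104262872-104263121 (plus) for Serpina3i, chr8:94172368-94172617 (plus) for Mt2 and chr8:94178839-94179088 (plus) for Mt1.
Socs3: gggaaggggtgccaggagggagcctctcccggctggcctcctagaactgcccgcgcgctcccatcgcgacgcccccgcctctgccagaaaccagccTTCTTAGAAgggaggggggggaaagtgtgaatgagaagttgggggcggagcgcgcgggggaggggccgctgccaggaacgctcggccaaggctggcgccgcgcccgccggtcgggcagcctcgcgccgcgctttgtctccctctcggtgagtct
Itih4: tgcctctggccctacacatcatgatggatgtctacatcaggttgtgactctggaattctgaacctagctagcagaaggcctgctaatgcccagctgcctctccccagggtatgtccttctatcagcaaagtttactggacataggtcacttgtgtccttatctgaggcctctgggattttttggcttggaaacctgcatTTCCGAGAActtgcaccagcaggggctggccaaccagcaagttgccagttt
Serpina3i: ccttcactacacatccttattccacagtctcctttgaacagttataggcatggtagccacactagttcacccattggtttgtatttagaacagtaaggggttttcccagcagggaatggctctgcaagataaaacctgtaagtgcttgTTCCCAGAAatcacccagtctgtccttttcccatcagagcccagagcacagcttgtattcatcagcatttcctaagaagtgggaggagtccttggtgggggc
Mt2: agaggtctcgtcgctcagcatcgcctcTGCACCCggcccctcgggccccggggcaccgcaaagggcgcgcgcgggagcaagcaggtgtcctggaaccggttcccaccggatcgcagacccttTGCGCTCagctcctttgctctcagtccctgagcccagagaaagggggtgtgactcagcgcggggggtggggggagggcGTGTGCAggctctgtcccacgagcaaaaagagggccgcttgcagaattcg
Mt1: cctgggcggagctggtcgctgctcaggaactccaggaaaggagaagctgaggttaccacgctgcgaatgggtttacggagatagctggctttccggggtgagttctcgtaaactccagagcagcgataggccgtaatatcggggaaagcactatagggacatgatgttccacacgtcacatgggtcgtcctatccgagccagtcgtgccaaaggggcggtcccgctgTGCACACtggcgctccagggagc

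Both strands were searched, and none of these 5 sequences held both motifs. A promoter was listed for 11 of the 12 rises and 9 of the 12 falls. The STAT motif stood in 3 of the 11 and 0 of the 9, against 5.93% of the 8899 promoters of tested genes, 7.44% of the 605 of genes called higher and 3.61% of the 499 of genes called lower. The metal response core stood in 4 of the 11, those of Mt2, Mt1, Junb and Pacsin1, and in 1 of the 9, that of Mest. It stood in 30.8% of the promoters of tested genes, 25.5% of those called higher and 34.1% of those called lower. A match is a stretch of letters and not a measured binding site.

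Of 11779 genes tested, 1514 were called, which is 12.9%. In CAC hearts 836 genes were higher (7.1% of those tested) and 678 were lower (5.76%). The counts of each gene list below are to be read beside these shares. On TPM as deposited, without the rescaling, 1616 were higher and 253 lower, with the median of all genes shifted by 0.09 on the log2 scale. A fit of the 9 CAC and Con libraries alone, without NCAC, gave 499 higher and 329 lower. At an unadjusted p below 0.05 there were 3425 genes. Counted without a test, 7.45% of genes tested had all 5 CAC libraries above all 4 Con libraries and 6.04% all below. Most calls were small. The median size of the called log2 differences was 0.39, and 975 of the 1514 were below 0.5. Of the 101 called genes with a log2 difference of at least 1 in size, 77 were higher and 24 lower. The counts depended on single libraries. Without Con replicate 4 they were 511 higher and 321 lower, and without Con replicate 5 they were 552 and 372. Without CAC replicate 2 they were 609 and 429. Leaving out CAC replicate 5 gave the largest counts, 983 higher and 914 lower.

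Among the rises of the acute phase, the leading gene was Serpina3n, which encodes a secreted inhibitor of serine proteases and lies on the plus strand of chromosome 12, from 104406729 to 104414329 (mm10, GENCODE M21). It had 37, 870.4, 50.3, 405 and 27.9 TPM in the CAC libraries, against 1.37, 2.95, 2.58 and 5.3 TPM in the Con libraries. Every CAC library was above every Con library, as the rule for the largest rises required, and replicates 2 and 4 were far above the rest. The log2 difference was 4.91 (SE 0.85, limma adjusted p = 0.00294), and 4.18 without CAC replicate 2. Serpina3i, a gene of the same family of protease inhibitors, had 2.85, 22.8, 3.95, 15.9 and 2.71 TPM in CAC and 0.425 to 1.2 TPM in Con, with a log2 difference of 2.20 (SE 0.48, limma adjusted p = 0.0104). Serpina3 genes are near-identical copies, and reads may have been divided among them in the counting, which leaves the value of each uncertain. Lcn2, which encodes an iron-scavenging lipocalin, had 13, 129, 11.8, 31.3 and 6.15 TPM in CAC, against 0.67, 0.862, 1.26 and 2.02 TPM in Con. Its log2 difference of 3.37 (SE 0.62, limma adjusted p = 0.00432) was 2.73 without CAC replicate 2. Complement component C4b had 11.7, 32.9, 9.27, 16.6 and 15.3 TPM in CAC, against 2.47, 2.55, 3.4 and 2.04 TPM in Con, a log2 difference of 2.21 (SE 0.27, limma adjusted p = 0.000341). Itih4, which encodes a plasma protein of the inter-alpha-trypsin inhibitor family, had 7.3, 15, 7.66, 14.1 and 7.46 TPM in CAC, against 0.937, 1.68, 1.55 and 1.13 TPM in Con. The groups did not overlap, as the same rule required, and the log2 difference was 2.23 (SE 0.21, limma adjusted p = 5.89e-05).

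Receptor genes, signalling genes and further genes of secreted proteins were called too. Socs3, the feedback inhibitor, had 14.3, 50.4, 12.6, 34.2 and 12 TPM in CAC, against 2.93, 2.07, 1.76 and 1.15 TPM in Con, a log2 difference of 2.90 (SE 0.36, limma adjusted p = 0.000367). Osmr, the oncostatin M receptor that pairs with gp130, had 6.97, 17.6, 8.24, 15.9 and 6.65 TPM in CAC, against 2.07, 2.99, 2.88 and 3 TPM in Con. Its log2 difference was 1.59 (SE 0.24, limma adjusted p = 0.00156). Replicates 2 and 4 were again the highest CAC libraries, and no CAC library fell within the Con range. The interleukin-1 receptor gene Il1r1 had 5.93 to 8.03 TPM in CAC, against 3.33 to 4.67 TPM in Con, with a log2 difference of 0.80 (SE 0.10, limma adjusted p = 0.000405). Fgl2, which encodes a secreted fibrinogen-like protein, had 33.9 to 75.2 TPM in CAC, against 18.2 to 21.5 TPM in Con, with a log2 difference of 1.31 (SE 0.18, limma adjusted p = 0.000663). The next genes were chosen after their values were seen. Stat3 rose by 0.82 (limma adjusted p = 0.00105), Bcl3, a nuclear partner of NF-kB, by 1.42 (limma adjusted p = 0.00501), and Il6st, which encodes gp130, by 0.26 (limma adjusted p = 0.0139). Haptoglobin (Hp) rose by 0.75 (limma adjusted p = 0.0438) and the kinase gene Pim1 by 0.78 (limma adjusted p = 0.0456). The call of Hp was lost without CAC replicate 4 or Con replicate 3, 4 or 5 (limma adjusted p up to 0.11), and that of Pim1 without CAC replicate 1, 2, 3 or 4 or Con replicate 3, 4 or 5 (up to 0.128).

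Of the 21 genes of the acute phase and STAT3 list, 18 passed the filter on low values, 12 were called higher and 0 lower, with a median log2 difference of 1.00 against 0.00 over all genes tested. Leaving out single libraries gave 10 to 14 higher. Serpina3m, Saa3 and Orm1 were below the filter. Other members, chosen after their values were seen, were not called. Lifr, the leukaemia inhibitory factor receptor, had a log2 difference of -0.05, the interleukin-6 receptor gene Il6ra 0.20 and Cebpb 0.66. Lrg1 had 36.7 to 376 TPM in CAC and 17.1 to 36.5 TPM in Con, with a log2 difference of 1.68 that missed the threshold (limma adjusted p = 0.0597) but passed it on TPM as deposited. Cebpd, with a log2 difference of 1.18, and Timp1, with 0.68, had limma adjusted p of 0.219 and 0.0541. The summed level of the list was 294 to 1820 TPM in CAC and 145 to 197 TPM in Con.

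**Figure D1:**
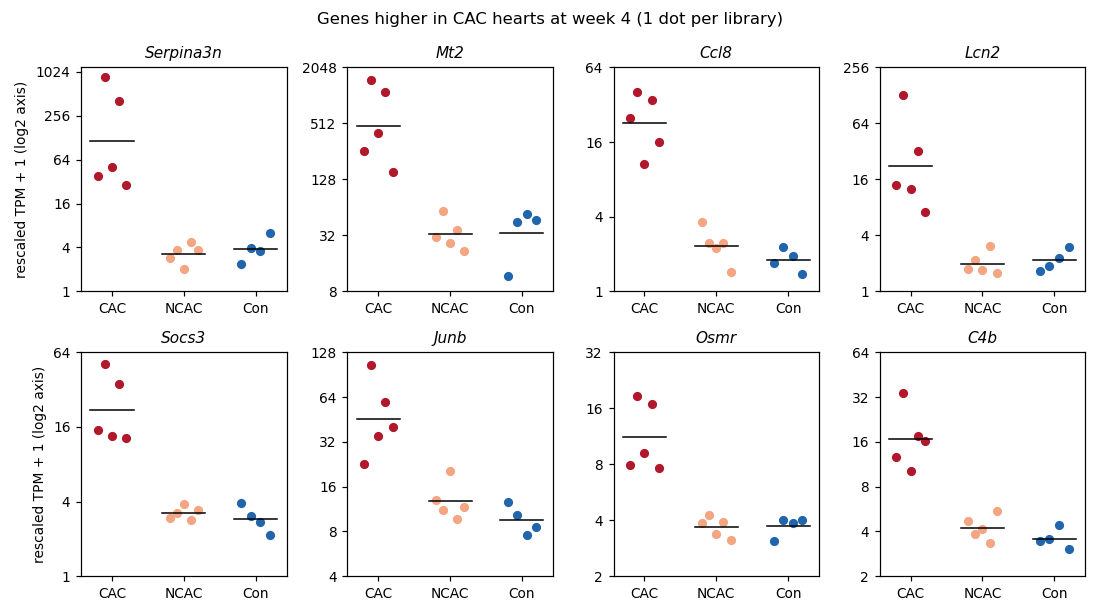
Rescaled TPM + 1 on a log2 axis for 8 genes that rose, each point 1 library. Each panel shows CAC, NCAC and Con from left to right, with a line at the mean on the log scale. In each panel all 5 CAC libraries stand above the 4 Con libraries, which the choice required of every gene shown except Osmr. Serpina3n spans 27.9 to 870.4 TPM in CAC.

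The metallothionein genes rose with wide spread among CAC hearts. Mt2 had 256, 1488, 404, 1122 and 152 TPM in CAC, against 10.8, 43.5, 53.5 and 45.3 TPM in Con. The log2 difference was 3.84 (SE 0.63, limma adjusted p = 0.00225). Mt1 had 529.8, 2420, 885, 2062 and 437 TPM in CAC, against 129.6, 257, 312 and 339 TPM in Con, a log2 difference of 2.04 (SE 0.47, limma adjusted p = 0.0139). Replicates 2 and 4 were highest for both genes. CAC and Con did not overlap for either, as the rule for the largest rises required. These genes are similar copies, so the split of reads between them is uncertain. Slc39a14, a zinc importer gene, had 15.1, 26.2, 21.9, 31.3 and 18.3 TPM in CAC and 10.7 to 16 TPM in Con. It rose by 0.64 (SE 0.18, limma adjusted p = 0.034), but was not called without CAC replicate 2, 3 or 4 or Con replicate 1, 3 or 4 (limma adjusted p up to 0.0936). Of 7 listed metallothionein and zinc genes 6 passed the filter, 3 were higher and 0 lower, with a median of 0.43. Their summed level was 625 to 3951 TPM in CAC and 166 to 417 TPM in Con.

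Chemokine genes that attract monocytes and eosinophils rose. Ccl8 had 23.9, 39.4, 9.69, 34.1 and 15 TPM in CAC, against 0.705, 1.26, 0.914 and 0.377 TPM in Con. Its log2 difference was 3.67 (SE 0.35, limma adjusted p = 5.96e-05). The lowest CAC library lay well above the highest Con library, and ranges apart were required of this gene. Ccl7, a ligand of the receptor CCR2, had 5.68, 4.39, 3.84, 4.91 and 5.45 TPM in CAC, against 2.25, 1.21, 1.75 and 0.421 TPM in Con, a log2 difference of 1.34 (SE 0.20, limma adjusted p = 0.00157). Here the CAC libraries were close together. Ccl6 rose by 1.27 (limma adjusted p = 0.0429), Ccl9 by 1.03 (limma adjusted p = 0.0482) and the eosinophil chemokine gene Ccl11 by 0.63 (limma adjusted p = 0.0429). The call of Ccl6 was lost without CAC replicate 2 or 4 or any Con replicate (limma adjusted p up to 0.106), that of Ccl9 without CAC replicate 4 or any Con replicate (up to 0.11) and that of Ccl11 without CAC replicate 1, 2 or 3 or any Con replicate (up to 0.119). Of 19 listed chemokine genes 13 passed the filter, 5 were higher and 0 lower, with a median of 0.18. Without any 1 of the 4 Con libraries, 2 were higher. Chemokine genes are also a family of similar copies.

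Macrophage markers rose by modest amounts. Lyz2, the macrophage lysozyme gene, had 188, 189, 165, 169 and 173 TPM in CAC, against 112, 143, 101 and 112 TPM in Con, a log2 difference of 0.60 (SE 0.09, limma adjusted p = 0.00143). Csf1r, the receptor on which macrophages depend for survival, had 17.2, 17.2, 13.9, 16.2 and 15.6 TPM in CAC, against 9.67, 13.1, 8.87 and 9.9 TPM in Con, a log2 difference of 0.59 (SE 0.09, limma adjusted p = 0.00197). The CAC libraries lay close together for both genes. The mannose receptor gene Mrc1 had 11.7, 22.1, 9.89, 15.7 and 9.66 TPM in CAC, against 6.02 to 6.26 TPM in Con, a log2 difference of 0.99 (SE 0.19, limma adjusted p = 0.00488). The Fc receptor gene Fcgr1 had 1.36 to 3.56 TPM in CAC and 0.8 to 1.25 TPM in Con, a log2 difference of 0.86 (SE 0.15, limma adjusted p = 0.00335). The complement genes C1qa, C1qb and C1qc, chosen after their values were seen, rose by 0.80, 0.92 and 0.85 (limma adjusted p = 0.00669, 0.00714 and 0.0053). C1qa stood at 76.3 to 111 TPM in CAC and 40.3 to 62.8 TPM in Con. Of 21 listed macrophage markers 18 passed the filter, 12 were higher and 0 lower, with a median of 0.60, and 9 to 11 were higher with single libraries left out. Their summed level was 457 to 635 TPM in CAC and 288 to 392 TPM in Con. Adgre1, which encodes the macrophage surface protein F4/80, had a log2 difference of 0.49 (limma adjusted p = 0.097), and Cd163, Lyve1, Cx3cr1, Ly6c2 and Retnla were not called either. In bulk tissue a change in the number of cells of a type and a change in RNA per cell cannot be told apart.

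Lists of other blood cells and of interferon responses gave 0 calls by limma in either direction. Of the neutrophil markers 5 of 14 passed the filter and of the B cell markers 5 of 14, with 0 of either at an unadjusted p below 0.05. Of the others, 1 of 18 T and natural killer cell markers and 1 of 10 mast cell and eosinophil markers passed, each lower at an unadjusted p below 0.05. Of 23 type I interferon genes that passed, of 28 listed, 1 was higher and 2 lower at an unadjusted p below 0.05, and of 14 interferon-gamma GTPase genes, of 18 listed, 1 was higher and 4 lower. All 19 antigen presentation genes that passed missed it. Of 13 erythroid genes 9 passed and 1 was higher at an unadjusted p below 0.05, with a summed level of 3056 to 12118 TPM in CAC and 2899 to 5427 TPM in Con.

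Immediate early and other stress genes followed. Junb, a subunit of the AP-1 transcription factor, had 21.6, 104, 34.1, 58.7 and 39.5 TPM in CAC, against 11.6, 9.35, 6.62 and 7.52 TPM in Con, a log2 difference of 2.25 (SE 0.35, limma adjusted p = 0.00183). Fos, its partner, had 0.841, 25.8, 3.17, 9.56 and 4.28 TPM in CAC and 0.451 to 0.983 TPM in Con. It passed the filter through CAC libraries alone, and its groups overlapped through CAC replicate 1. Its log2 difference of 2.01 (SE 0.55, limma adjusted p = 0.029) lost its call without CAC replicate 4 or any Con replicate (limma adjusted p up to 0.0708). Of 17 immediate early genes that passed, of 21 listed, 2 were higher (4 on TPM as deposited) and 0 lower, and all 17 had a positive log2 difference, with a median of 0.73. Btg2 was not called (log2 difference 1.61, limma adjusted p = 0.0642). The amino acid transporter subunit gene Slc3a2 had 18, 41.3, 22.5, 39.4 and 17.9 TPM in CAC and 12.7 to 14 TPM in Con, and rose by 0.91 (SE 0.22, limma adjusted p = 0.0159). Chac1, a glutathione-degrading enzyme gene induced by ATF4, rose by 1.00 (limma adjusted p = 0.0305) but was not called without CAC replicate 2 or Con replicate 1, 3 or 4 (up to 0.0742). Atf5, another gene of the ATF4 pathway, fell by 0.37 (limma adjusted p = 0.0369) but was not called without CAC replicate 1, 2 or 3 or Con replicate 3, 4 or 5 (up to 0.115) or on TPM as deposited. In all, 23 of 28 listed ATF4 and endoplasmic reticulum stress genes passed, 2 were higher and 1 lower, with a median of -0.01. Over all genes tested, 7.1% were higher and 5.76% lower. On TPM as deposited 4 of the list were higher and 0 lower.

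The antioxidant gene Nqo1, a target of NRF2, had 125, 112, 103, 119.7 and 93.9 TPM in CAC, against 63.5, 58.1, 65.9 and 59.9 TPM in Con, a log2 difference of 0.82 (SE 0.08, limma adjusted p = 5.89e-05). The glutathione peroxidase gene Gpx1 rose by 0.42 (limma adjusted p = 0.0026). They were the 2 higher of 17 listed NRF2 and oxidative stress genes, with 0 lower and a median of 0.13, and on TPM as deposited 4 were higher. Clu, Trf, Pacsin1 and Clca3a1, which are not on this list, were higher as well. Clu, the extracellular chaperone clusterin, had 313, 651, 319, 347 and 336 TPM in CAC, against 112, 153, 140.4 and 152 TPM in Con, a log2 difference of 1.44 (SE 0.19, limma adjusted p = 0.000558). Trf, the iron carrier transferrin, had 10.2 to 15.7 TPM in CAC and 4.52 to 5.46 TPM in Con, a log2 difference of 1.24 (SE 0.15, limma adjusted p = 0.000406). Pacsin1, a membrane-bending protein of endocytosis, had 5.95, 4.23, 4.15, 8.45 and 8.03 TPM in CAC, against 0.433, 0.689, 1.36 and 0.306 TPM in Con, a log2 difference of 2.07 (SE 0.21, limma adjusted p = 7.51e-05). Replicates 4 and 5 were its highest CAC libraries, and replicate 2 was not. Clca3a1, of the family of chloride channel accessory genes, had 2.51, 26.3, 2.08, 6 and 1.01 TPM in CAC and 0.15 to 0.433 TPM in Con. It passed the filter through its CAC libraries alone. Its log2 difference of 2.00 (SE 0.55, limma adjusted p = 0.0294) was 1.41 without CAC replicate 2, and the call was lost without CAC replicate 4 or any Con replicate (limma adjusted p up to 0.0677).

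Few genes tied to glucocorticoids or the clock were called, and the calls among heat shock genes were all falls. Of 19 listed glucocorticoid-induced genes Pdk4 was higher and 0 were lower, with a median of 0.11. Fkbp5, a marker of the glucocorticoid receptor's activity, had a log2 difference of 0.23 (limma adjusted p = 0.87), Per1 of 0.47 and Cdkn1a of 0.22, and none of the 3 was called. Bhlhe40, a repressor of the clock, had 45.4, 49.7, 37.5, 45.8 and 48.5 TPM in CAC, against 32.5, 25.8, 20.8 and 21.2 TPM in Con, a log2 difference of 0.85 (SE 0.17, limma adjusted p = 0.00768). It was the 1 call among 14 clock repressors and output genes, where Nr1d1 had -0.02 and Dbp 0.16, and 0 of 5 clock activators that passed were called, with 1 higher at an unadjusted p below 0.05. The clock gene Arntl was below the filter. Of 16 heat shock genes 3 were lower and 0 higher, with a median of -0.16. The mitochondrial chaperone genes Hspe1 and Hspd1 fell by 0.24 and 0.18 (limma adjusted p = 0.0165 and 0.0271) and Hspa4l by 0.28 (limma adjusted p = 0.0327). These 3 calls were lost on TPM as deposited. They were also lost without Con replicate 4, that of Hspd1 further without CAC replicate 2 or 4 or Con replicate 1 or 5, and that of Hspa4l without CAC replicate 2, 3 or 4 or Con replicate 3 (limma adjusted p up to 0.107).

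Fbxo32 and Trim63, the ubiquitin ligase genes best known from muscle atrophy, were not called. Fbxo32 had 52.3, 62.8, 68, 28.4 and 59.8 TPM in CAC, against 47.5, 38.7, 41.2 and 43.3 TPM in Con. CAC replicate 4 was below all Con libraries and the other CAC libraries above them, with a log2 difference of 0.28 (limma adjusted p = 0.408). Trim63, which encodes the ligase MuRF1, had a log2 difference of 0.24 (limma adjusted p = 0.201). Of 22 listed atrophy and FoxO genes 21 passed, 3 were higher and 0 lower, with a median of 0.18, and on TPM as deposited 7 were higher. The 3 were the autophagosome gene Map1lc3b, at 86.8 to 131 TPM in CAC and 71.5 to 75.8 TPM in Con, with a log2 difference of 0.42 (limma adjusted p = 0.0123), the translation repressor gene Eif4ebp1, with 0.69 (limma adjusted p = 0.0173), and the F-box gene Fbxo31, with 0.87 (limma adjusted p = 0.0367). Without Con replicate 4 only Map1lc3b was still called, with Eif4ebp1 at limma adjusted p = 0.0527. The call of Fbxo31 was lost without CAC replicate 2 or 4 or any Con replicate (up to 0.0948).

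Lysosome and autophagy genes held more rises than falls. Lamp2, a membrane protein of lysosomes, had 43.3, 53.7, 40, 47.3 and 40.4 TPM in CAC, against 30.9, 32.3, 29.5 and 30 TPM in Con, a log2 difference of 0.53 (SE 0.07, limma adjusted p = 0.000817). The cathepsin gene Ctsb had 195 to 217 TPM in CAC and 166 to 182 TPM in Con, a log2 difference of 0.25 (SE 0.04, limma adjusted p = 0.00291). Gabarap, a relative of Map1lc3b, rose by 0.24 (limma adjusted p = 0.00653). Pink1, a kinase of mitophagy, fell by 0.25 (limma adjusted p = 0.0406), a call lost on TPM as deposited and without CAC replicate 1, 2 or 4 or Con replicate 1 or 5 (limma adjusted p up to 0.123). All 23 autophagy genes of the table passed, of 24 listed, with 4 higher, 1 lower and a median of 0.07. Over all genes tested, 7.1% were higher and 5.76% lower. On TPM as deposited 9 of the 23 were higher and 0 lower. Of 31 proteasome genes 0 were higher and 2 lower, near the share of all genes tested, with a median of 0.00. On TPM as deposited 6 of the 31 were higher and 0 lower. Psma1 and Psma4 fell by 0.12 and 0.13 (limma adjusted p = 0.0347 and 0.0436). Both calls were lost as deposited and without CAC replicate 3, 4 or 5 or any Con replicate, that of Psma1 also without CAC replicate 2 (limma adjusted p up to 0.117).

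The panel of cardiac load markers did not move as 1 group. Nppa, which encodes the atrial natriuretic peptide, had 1032, 1025, 70.9, 173 and 113 TPM in CAC, against 399, 669, 359.6 and 118 TPM in Con. Both groups spanned a wide range and overlapped, and the log2 difference was -0.26 (SE 1.02, limma adjusted p = 0.898). Nppb had a log2 difference of 0.60 (limma adjusted p = 0.346) and the fetal myosin gene Myh7 of 0.17 (limma adjusted p = 0.151). Skeletal actin, Acta1, had 327, 328, 105, 219 and 453 TPM in CAC, against 1442, 462, 1961 and 459 TPM in Con, and its log2 difference of -1.77 (SE 0.56) missed the threshold (limma adjusted p = 0.0515). Ankrd1, a stretch-responsive ankyrin repeat protein of the sarcomere and nucleus, had 4423, 5842, 2959, 2612 and 2198 TPM in CAC, against 1305, 1275, 1366 and 722 TPM in Con. It rose by 1.58 (SE 0.31, limma adjusted p = 0.00669). Mybpc2, the fast skeletal myosin-binding protein C gene, had 26.2, 29.9, 28, 26 and 21.1 TPM in CAC, against 9.78, 15.1, 14.7 and 12.1 TPM in Con, a log2 difference of 0.98 (SE 0.14, limma adjusted p = 0.00105). The CAC and Con libraries did not overlap for Ankrd1 or Mybpc2. Of 18 listed cardiac stress genes 15 passed, 3 were higher and 1 lower, with a median of 0.09. The others were Actn1, which rose by 0.40 (limma adjusted p = 0.0332), and the matrix gene Postn, which fell by 1.06 (SE 0.27, limma adjusted p = 0.0216). The call of Actn1 was lost without CAC replicate 2 or any Con replicate (up to 0.0877), and that of Postn without Con replicate 4 or 5 (up to 0.0746).

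Sarcomere genes held 3 falls and 0 rises among 22, with a median of -0.08, and on TPM as deposited 3 rises and 2 falls. Mylk4, whose product phosphorylates myosin light chains in heart and skeletal muscle, had 58.7, 16.4, 52.2, 25.4 and 21.3 TPM in CAC, against 79, 102, 132 and 137 TPM in Con. It fell by 1.80 (SE 0.37, limma adjusted p = 0.0081), and no CAC library reached the Con range, as the rule for the largest falls required. The muscle creatine kinase gene Ckm had 1101, 935, 1036, 863 and 1032 TPM in CAC, against 1219, 1194, 1319 and 1292 TPM in Con, a log2 difference of -0.34 (SE 0.06, limma adjusted p = 0.00437). Mybpc3, the cardiac myosin-binding protein C gene, fell by 0.37 (limma adjusted p = 0.0452), a call lost as deposited and without CAC replicate 2 or 3 or any Con replicate (limma adjusted p up to 0.114). Myh6 had a log2 difference of -0.18 (limma adjusted p = 0.0893) and Actc1 of -0.43 (limma adjusted p = 0.225).

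Ion channel and calcium genes changed in both directions. Kcnip2, the subunit KChIP2 that sets the transient outward potassium current and is encoded on chromosome 19 (45791839 to 45816061, minus strand), had 51.4, 39.5, 59.9, 50.8 and 47 TPM in CAC, against 91.1, 105, 88 and 88 TPM in Con. It fell by 0.90 (SE 0.10, limma adjusted p = 0.000123). Kcnj5, a subunit of the acetylcholine-gated potassium channel, had 24.9, 20.1, 25.1, 21.3 and 24.2 TPM in CAC, against 32.5, 31.7, 33.9 and 33.9 TPM in Con, a log2 difference of -0.50 (SE 0.08, limma adjusted p = 0.0022). Kcnq1, of the slow delayed rectifier, had 28.7, 40.7, 28.4, 35.3 and 26.9 TPM in CAC, against 18.2, 14.2, 15.9 and 18.4 TPM in Con, and rose by 0.89 (SE 0.13, limma adjusted p = 0.00105). The groups were apart for all 3 channel genes. The cardiac ryanodine receptor gene Ryr2, the calcium release channel, had 151 to 159.6 TPM in CAC and 174 to 206 TPM in Con, a log2 difference of -0.27 (SE 0.05, limma adjusted p = 0.00699) that was not called on TPM as deposited. The skeletal calsequestrin gene Casq1 had 12.6, 3.75, 6.95, 10.8 and 6.91 TPM in CAC, against 43.5, 20.2, 25.1 and 13.9 TPM in Con. Its fall of 1.51 (SE 0.41, limma adjusted p = 0.0281) lost its call without CAC replicate 2 or Con replicate 1 or 4 (limma adjusted p up to 0.0801).

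Further channel genes were chosen after their values were seen. The pacemaker channel gene Hcn2 had 6.53 to 11.5 TPM in CAC and 14.4 to 19.2 TPM in Con, a log2 difference of -0.80 (limma adjusted p = 0.00816). The connexin 43 gene Gja1 had 367 to 478 TPM in CAC and 170.2 to 352 TPM in Con, a log2 difference of 0.91 (limma adjusted p = 0.0117). The calcium channel gene Cacna1c rose by 0.23 (limma adjusted p = 0.00872). Cardiac calsequestrin, Casq2, fell by 0.46 (limma adjusted p = 0.0195). The call of Casq2 was lost without Con replicate 1 or 4 (limma adjusted p up to 0.0552). In all, 27 of 28 listed calcium, channel and conduction genes passed, with 4 higher, 6 lower and a median of 0.00. The calcium pump gene Atp2a2 and its regulator Pln, with log2 differences of 0.02 and 0.00, were not called.

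**Figure D2:**
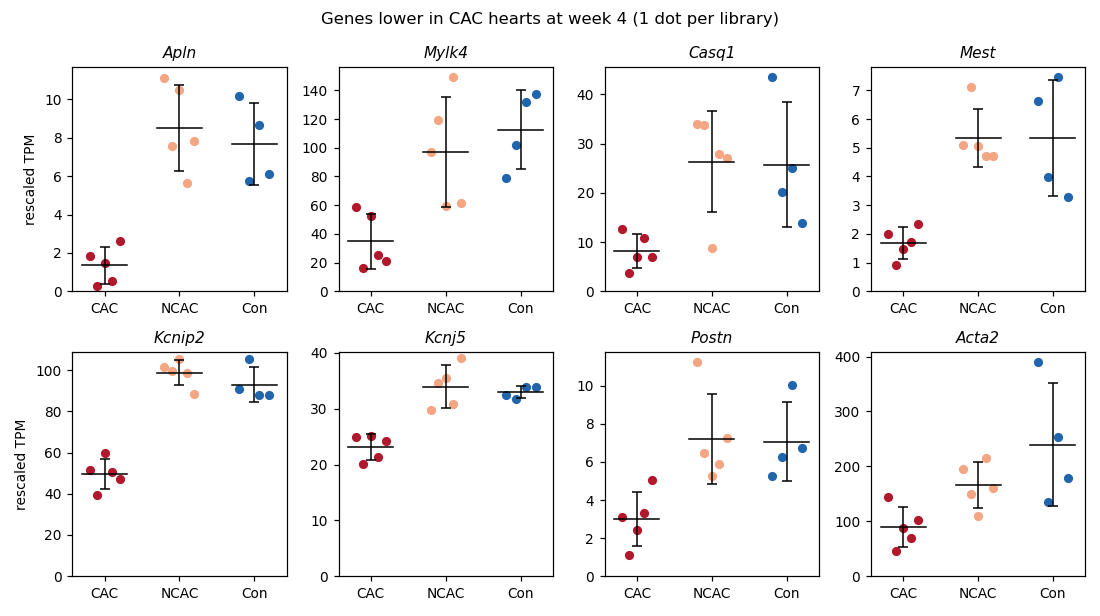
Rescaled TPM on a linear axis for 8 genes, each point 1 library. Each panel shows CAC, NCAC and Con from left to right, with bars for the mean ± SD. All CAC libraries lie below all Con libraries for Apln, Mylk4, Casq1, Mest, Kcnip2, Kcnj5 and Postn, whereas Acta2 overlaps at 144 TPM in CAC replicate 1 and 135 TPM in Con replicate 3. For Apln, Mylk4, Casq1 and Mest the rule for the largest falls required this separation.

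Fatty acid genes were called in 1 direction. Plin2, which coats lipid droplets, had 33.5, 61.1, 35.5, 67.6 and 37.5 TPM in CAC, against 20.4, 25.9, 24.1 and 19.8 TPM in Con, a log2 difference of 0.98 (SE 0.19, limma adjusted p = 0.0053). Lipoprotein lipase, Lpl, had 1274 to 1808 TPM in CAC and 1046 to 1110 TPM in Con, a log2 difference of 0.43 (SE 0.09, limma adjusted p = 0.01). Cpt1a, which admits fatty acids into mitochondria, had 22.3 to 47.4 TPM in CAC and 16.6 to 20.2 TPM in Con, a log2 difference of 0.66 (SE 0.16, limma adjusted p = 0.0199). Pdk4, the kinase that shuts off pyruvate dehydrogenase, had 197, 639, 209, 935 and 168 TPM in CAC, against 97.8, 158, 131 and 91.1 TPM in Con. Replicates 2 and 4 again stood above the others, and the log2 difference was 1.51 (SE 0.46, limma adjusted p = 0.0444). The thioesterase gene Acot1, a near-identical neighbour of Acot2, rose by 1.06 (limma adjusted p = 0.0322), and Decr1, of unsaturated fatty acid oxidation and chosen after its values were seen, by 0.33 (limma adjusted p = 0.0454). These last calls and that of Cpt1a depended on single libraries. Pdk4 lost its call without CAC replicate 2 or 4 or any Con replicate (limma adjusted p up to 0.114), Acot1 without CAC replicate 2 or 4 or Con replicate 1, 4 or 5 (up to 0.0862), Decr1 without CAC replicate 1 or 4 or any Con replicate (up to 0.112) and Cpt1a without Con replicate 4 or 5 (up to 0.0586). Of 34 listed fatty acid oxidation and PPAR genes 33 passed, 6 were higher and 0 lower, with a median of 0.10, but without Con replicate 4 or 5 only 2 were higher, with up to 11 without other libraries and 12 on TPM as deposited. The fatty acid transporter gene Cd36 had a log2 difference of 0.24 (limma adjusted p = 0.0622), the uncoupling protein gene Ucp3 of 0.83 (0.0888) and Angptl4 of 0.53, and they were not called.

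Glucose genes held 4 falls and 1 rise among 24, with a median of -0.10, whereas TPM as deposited gave 4 rises and 1 fall. Eno3, the muscle enolase gene, had 854, 839, 917, 752 and 853 TPM in CAC, against 1058, 1096, 1269 and 1355 TPM in Con, a log2 difference of -0.50 (SE 0.07, limma adjusted p = 0.00118). The phosphofructokinase gene Pfkm fell by 0.28 (limma adjusted p = 0.00593), the pyruvate kinase gene Pkm by 0.31 (limma adjusted p = 0.0121) and the insulin-responsive glucose transporter gene Slc2a4 by 0.25 (limma adjusted p = 0.0287). These 3 calls were lost on TPM as deposited, and that of Slc2a4 also without CAC replicate 2 or 4 or Con replicate 3, 4 or 5 (limma adjusted p up to 0.0919). The lactate dehydrogenase gene Ldha had 502, 559, 508, 552 and 501 TPM in CAC, against 384, 384, 443 and 474 TPM in Con, and rose by 0.32 (SE 0.07, limma adjusted p = 0.00994).

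Lipid synthesis genes were split. The fatty acid synthase gene Fasn had 6.44 to 11.2 TPM in CAC and 4.08 to 4.66 TPM in Con, a log2 difference of 0.72 (SE 0.13, limma adjusted p = 0.00377). The desaturase gene Scd1 had 3.97 to 4.53 TPM in CAC and 5.52 to 7.25 TPM in Con, a log2 difference of -0.40 (SE 0.08, limma adjusted p = 0.0054), and Scd2 fell by 0.49 (limma adjusted p = 0.0118). Of 24 listed cholesterol and lipid synthesis genes 20 passed, with 2 higher, 2 lower and a median of -0.05. Of adipocyte markers 9 of 17 passed, 3 were higher and 1 lower. Beside Fasn and Scd1 these were the lipid droplet gene Cidea, with 0.68 (limma adjusted p = 0.0117), and the lipase gene Lipe, with 0.48 (limma adjusted p = 0.0218, lost without Con replicate 3 or 4 at up to 0.0602).

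Among mitochondrially encoded genes all 13 log2 differences were negative, with a median of -0.21, and 2 were called lower (4 on TPM as deposited). mt-Nd2, a subunit of complex I, had 28793, 22021, 25939, 27459 and 26345 TPM in CAC, against 31024, 30871, 34416 and 31009 TPM in Con. It fell by 0.29 (limma adjusted p = 0.0349), as did mt-Nd3 (limma adjusted p = 0.0392). The call of mt-Nd2 was lost without CAC replicate 2 or 3 or any Con replicate (up to 0.108) and on TPM as deposited, and that of mt-Nd3 without CAC replicate 2, 3 or 4 or any Con replicate (up to 0.116). Of 43 nuclear-encoded respiratory chain genes Ndufs4 was lower, by 0.16 (limma adjusted p = 0.0455), with a median of -0.03. Its call was lost as deposited, where 6 of the 43 were higher and 0 lower, and without CAC replicate 3, 4 or 5 or Con replicate 1, 4 or 5 (up to 0.127). Of 41 ribosomal protein genes 5 were higher and 0 lower, with a median of 0.11, and 22 were higher on TPM as deposited. Rpl12 rose by 0.29 (limma adjusted p = 0.0142), Rpl3 by 0.26 (0.04), Rps20 by 0.23 (0.033), Rps16 by 0.22 (0.033) and Rps9 by 0.21 (0.0273). Without Con replicate 1, 3 or 4 only Rpl12 was called. The calls of Rps16 and Rpl3 were also lost without CAC replicate 2 or 4, and that of Rpl3 without CAC replicate 1 or Con replicate 5 (limma adjusted p up to 0.11). Ribosomal protein genes have many processed copies, and the share of mitochondrially encoded TPM was lower in CAC as given above. Its part in these small differences was not tested.

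Among endothelial genes falls outnumbered rises. Apln, the ligand of the apelin receptor, made by endothelial cells and encoded on chromosome X (48025146 to 48034853, minus strand), had 1.84, 0.264, 1.46, 0.554 and 2.64 TPM in CAC, against 10.2, 5.73, 8.68 and 6.09 TPM in Con. It fell by 1.96 (SE 0.29, limma adjusted p = 0.00118), the largest of the falls named by the rule. The receptor gene Aplnr had 10.4, 0.713, 6.5, 1.7 and 22.4 TPM in CAC, against 32.6, 21.5, 19.7 and 8.62 TPM in Con. The groups overlapped, and its log2 difference of -1.66 was not called (SE 0.65, limma adjusted p = 0.107). The VE-cadherin gene Cdh5 had 58.8, 37.7, 49.3, 47.3 and 62.1 TPM in CAC, against 75.3, 73.6, 79.7 and 64.7 TPM in Con, a log2 difference of -0.53 (SE 0.12, limma adjusted p = 0.0117). Pecam1, a junction protein, fell by 0.28 (limma adjusted p = 0.0156), and Angpt2, a ligand of the receptor TIE2, by 0.52 (limma adjusted p = 0.0234). Eng and Vwf were chosen after their values were seen. The endoglin gene Eng fell by 0.43 (limma adjusted p = 0.0412), and the von Willebrand factor gene Vwf rose by 0.45 (limma adjusted p = 0.0327). The call of Angpt2 was lost without CAC replicate 2 or Con replicate 1, 3 or 4 (limma adjusted p up to 0.0672), that of Eng without CAC replicate 1 or 2 or Con replicate 3, 4 or 5 (up to 0.118) and that of Vwf without CAC replicate 2 or 4 or Con replicate 1, 3 or 5 (up to 0.087). Those of Pecam1 and Eng were lost on TPM as deposited. All 23 endothelial genes passed, with 1 higher, 5 lower (3 on TPM as deposited) and a median of -0.21. Their summed level overlapped, at 1332 to 1563 TPM in CAC and 1456 to 1862 TPM in Con.

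Genes of smooth muscle and matrix were mostly lower or not called. Smooth muscle actin, Acta2, had 144, 46.6, 87.5, 68.7 and 103 TPM in CAC, against 390.4, 135, 253 and 178 TPM in Con, a log2 difference of -1.38 (SE 0.33, limma adjusted p = 0.017) that missed the threshold once Con replicate 4 was left out (limma adjusted p = 0.053). Smtn, a smooth muscle cytoskeleton gene, fell by 0.50 (limma adjusted p = 0.0253, lost without CAC replicate 4 or Con replicate 1 or 5 at up to 0.0791) and the pericyte gene Rgs5 by 0.33 (limma adjusted p = 0.0132), and both calls were lost on TPM as deposited. They were the 3 calls among 14 genes, with a median of -0.22. Postn had 3.09, 1.1, 2.45, 3.34 and 5.03 TPM in CAC, against 5.24, 6.27, 10 and 6.71 TPM in Con. The groups were narrowly apart. Of 31 listed collagen and matrix genes 29 passed, 1 was higher and 3 lower (1 on TPM as deposited), with a median of -0.33. The small proteoglycan gene Dcn rose by 0.51 (limma adjusted p = 0.0199), whereas Tgfb3 and Col8a1 fell by 0.28 and 0.54 (limma adjusted p = 0.0407 and 0.0419). The fibrillar collagen genes Col1a1 and Col3a1 were not called, with log2 differences of -0.35 (limma adjusted p = 0.422) and -0.09 (0.909). The list is sensitive to single libraries, with 0 lower without Con replicate 4 or 5 and up to 9 lower otherwise. Dcn lost its call without Con replicate 4 (up to 0.0543), Tgfb3 without CAC replicate 2, 3 or 4 or any Con replicate (up to 0.0965) and Col8a1 without CAC replicate 2, 4 or 5 or Con replicate 3, 4 or 5 (up to 0.113), the last pair also as deposited.

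Of the 13 fibroblast markers that passed, 3 were higher and 2 lower, with a median of 0.00. Their summed level was 1601 to 1821 TPM in CAC and 1482 to 1582 TPM in Con. Beside Dcn, Smoc2, a secreted calcium-binding protein, rose by 0.22 and Wisp2, a CCN family protein, by 0.68 (limma adjusted p = 0.00755 and 0.041), and the microfibril gene Mfap5 and the homeobox gene Meox1 fell by 0.70 and 1.13 (limma adjusted p = 0.018 and 0.0261). The calls of Wisp2, Mfap5 and Meox1 were lost without single libraries, at limma adjusted p up to 0.108 (CAC replicate 1, 2 or 4 or Con replicate 1, 3 or 5), 0.0561 (Con replicate 5) and 0.0856 (CAC replicate 4 or Con replicate 1 or 4). Matrix proteases held few calls. The stromelysin gene Mmp3 had 2.99, 8.05, 4.91, 11.2 and 5.05 TPM in CAC, against 1.23, 0.205, 1.32 and 1.61 TPM in Con, a log2 difference of 1.78 (SE 0.30, limma adjusted p = 0.00239). The membrane protease gene Mmp15 had 17.9 to 31.1 TPM in CAC and 37.9 to 47.9 TPM in Con, a log2 difference of -0.74 (SE 0.16, limma adjusted p = 0.00951). Adamts15, a protease of proteoglycans, rose by 0.73 (limma adjusted p = 0.0161) but was not called without Con replicate 4 (0.0518). Of 15 listed proteases and inhibitors 13 passed, 2 were higher and 1 lower, with a median of 0.10. Over all genes tested, 7.1% were higher and 5.76% lower.

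Growth and developmental signals also changed. Sfrp1, a secreted antagonist of Wnt ligands, had 10.7, 11.4, 9.96, 13.1 and 13.2 TPM in CAC, against 6.41, 4.65, 4.95 and 5.07 TPM in Con, a log2 difference of 1.01 (SE 0.12, limma adjusted p = 0.000298). The related gene Frzb rose by 0.46 (limma adjusted p = 0.0156, lost without Con replicate 5 at 0.053), and 5 of 10 listed antagonists passed. H19, an imprinted non-coding RNA, had 11.7, 16.4, 6.53, 9.54 and 17.6 TPM in CAC, against 4.08, 3.95, 2.34 and 1.58 TPM in Con, a log2 difference of 1.72 (SE 0.33, limma adjusted p = 0.00502). Plagl1, an imprinted transcription factor gene, rose by 0.60 (limma adjusted p = 0.0024). Mest, another imprinted gene, had 2, 0.903, 1.46, 1.7 and 2.33 TPM in CAC, against 6.63, 4, 7.47 and 3.27 TPM in Con, and fell by 1.21 (SE 0.21, limma adjusted p = 0.00264). In all 10 of 12 imprinted growth genes passed, with 2 higher, 1 lower and a median of -0.08. Irs1, the insulin receptor substrate, had 4.28, 3.6, 5.85, 4.35 and 4.92 TPM in CAC, against 8.44, 6.73, 7.48 and 7.7 TPM in Con, a log2 difference of -0.63 (SE 0.11, limma adjusted p = 0.00329). The IGF-binding protein genes Igfbp4 and Igfbp3 rose by 0.52 and 0.59 and the receptor gene Igf1r by 0.26 (limma adjusted p = 0.0161, 0.0232 and 0.0365). Igfbp3 was not called without Con replicate 4 or 5 (limma adjusted p up to 0.0781) and Igf1r was not called without CAC replicate 2 or Con replicate 3, 4 or 5 (up to 0.105). Of 16 listed IGF pathway genes 14 passed, 3 were higher and 1 lower, with a median of 0.15.

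Cell cycle genes were low in all hearts, and 10 of 29 listed passed the filter. Rrm2, a subunit of ribonucleotide reductase, had 0.501 to 0.837 TPM in CAC and 1.23 to 2.58 TPM in Con, a log2 difference of -0.68 (SE 0.13, limma adjusted p = 0.00598). Rrm2 passed the filter through its Con libraries alone. The replication helicase gene Mcm5 fell by 0.49 (limma adjusted p = 0.048), and by 0.31 without Con replicate 4. It lost its call without CAC replicate 1, 2, 4 or 5 or Con replicate 1, 4 or 5 (limma adjusted p up to 0.118) and as deposited. They were the 2 calls, with a median of -0.24 over the 10.

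**Figure D3:**
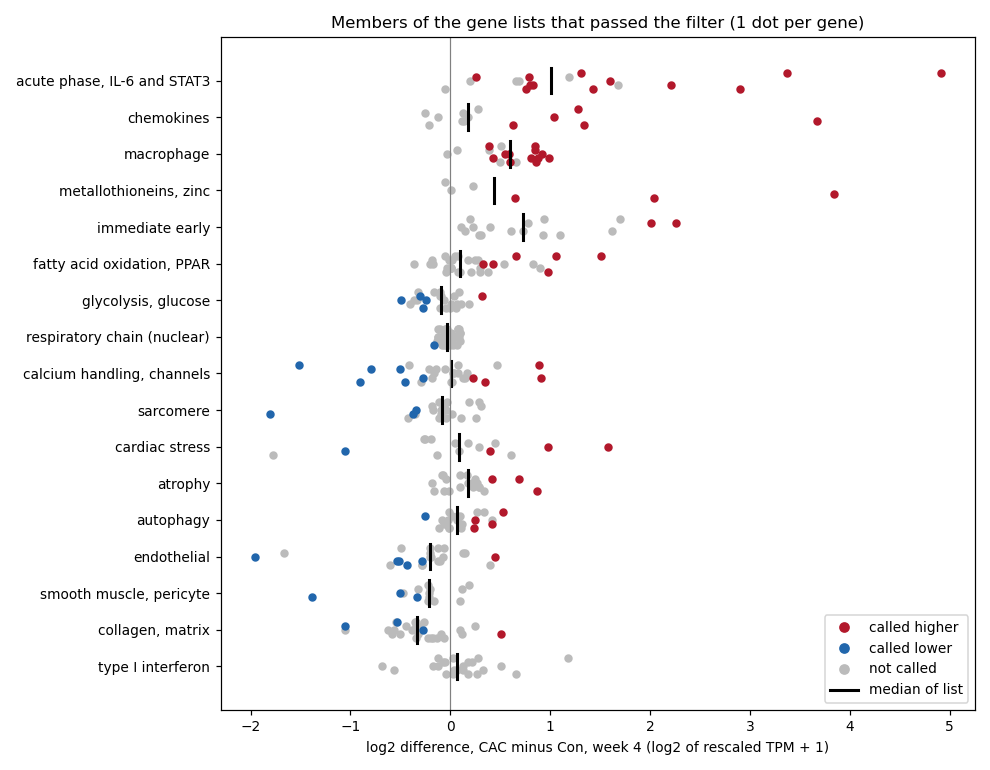
Log2 difference, CAC minus Con, of each member that passed the filter in 17 gene lists. Red points are called higher, blue points called lower and grey points not called. Black bars are medians, such as 1.00 for the acute phase list, 0.60 for the macrophage markers and -0.21 for the endothelial genes.

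The remaining largest falls came from genes of several kinds. The Nogo receptor gene Rtn4r had 4.79, 1.91, 6.45, 6.9 and 4.48 TPM in CAC, against 15.5, 16.8, 24.3 and 17.2 TPM in Con, a log2 difference of -1.78 (SE 0.28, limma adjusted p = 0.00182). Prnd, which encodes the prion-like protein doppel, had 0.0696 to 0.973 TPM in CAC and 1.1 to 5.37 TPM in Con, a log2 difference of -1.42 (SE 0.30, limma adjusted p = 0.00928). Prnd passed the filter through its Con libraries alone. The intermediate filament gene Nes had 2.62 to 10.7 TPM in CAC and 11.8 to 17.3 TPM in Con, a log2 difference of -1.25 (SE 0.26, limma adjusted p = 0.00816). The ranges did not touch for these 3 genes, as the rule for the largest falls required. Nrep, a small intracellular protein gene, had 9.46, 3.26, 10.4, 5.75 and 11.2 TPM in CAC, against 21.9, 17.7, 19.4 and 16.3 TPM in Con, a log2 difference of -1.23 (limma adjusted p = 0.00665). Mrgprh, an orphan receptor gene, fell by 1.20 (limma adjusted p = 0.00105). The ephrin receptor gene Ephb1 fell by 1.21 (limma adjusted p = 0.0179) and the microfibril gene Mfap4 by 1.19 (limma adjusted p = 0.02). Neither call held throughout, with Ephb1 losing it in the absence of Con replicate 5 (limma adjusted p = 0.0537) and Mfap4 without Con replicate 3 or 4 (up to 0.0627).

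Markers of tissues that a dissected heart could carry were checked. Of 9 lung and airway markers 0 passed the filter, and Sftpa1, Sftpd and Cldn18 were at 0 in all 9 libraries. Of 10 liver markers 3 passed and Trf was called, and of 10 thymus and lymph node markers 2 passed and missed even an unadjusted p of 0.05. Of 8 melanocyte markers 2 passed and 0 were called by limma, 1 being lower at an unadjusted p below 0.05, with Dct at a log2 difference of -0.60 (limma adjusted p = 0.117) and Tyrp1 at 0 in all 9 libraries. Mlana, a melanocyte gene chosen after its values were seen, was below the filter, at 0.738 to 1.78 TPM in CAC and 0.0723 to 0.592 TPM in Con. Of 13 atrial and pacemaker markers 6 passed and Clu was higher. Of 16 skeletal muscle markers 5 passed, with Mybpc2 higher and Eno3 and Casq1 lower. Of 12 epicardial markers 4 passed, and the retinoic acid synthesis gene Aldh1a2 was higher, at 6.72 to 11.4 TPM in CAC and 2.71 to 3.51 TPM in Con (log2 difference 1.23, SE 0.16, limma adjusted p = 0.000502). Of 13 Schwann cell and neuron markers 7 passed. Ncam1, an adhesion molecule, rose by 0.54 (limma adjusted p = 0.00175), and Dbh, the enzyme that makes noradrenaline, fell by 0.66 (limma adjusted p = 0.0281, lost without CAC replicate 2 or 4 or Con replicate 1, 3 or 5 at up to 0.079).

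Among called genes, the CAC library farthest from Con was most often replicate 2, followed by replicate 4. The share over all genes tested was not counted. Replicate 2 was farthest from Con in 59.9% of the 836 genes called higher and replicate 4 in 18.1%. Among the 678 called lower, replicate 2 was farthest in 65.8% and replicate 4 in 20.2%. Replicates 1, 3 and 5 each led in 3.69 to 10.5%. Among the 12 largest rises, replicate 2 was highest in 11, and among the 12 largest falls replicate 2 was lowest in 9 and replicate 4 in 3. The labels give no batch, date or tumour size, so what these libraries share was not tested.

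**Figure D4:**
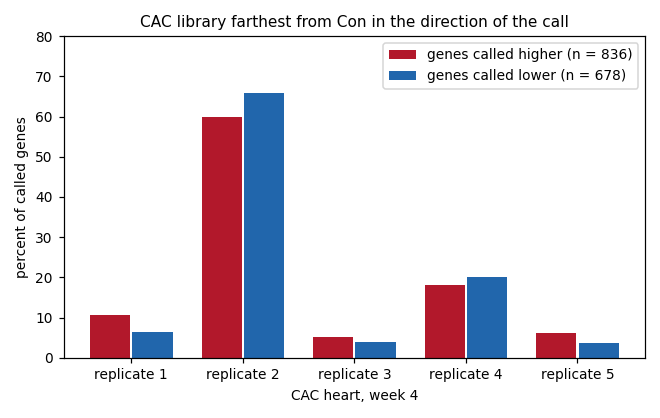
Percent of called genes in which each CAC library stood farthest from Con, with red bars for the 836 genes called higher and blue bars for the 678 called lower. Replicate 2 leads in 59.9% and 65.8%, and replicate 4 in 18.1% and 20.2%.

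The NCAC hearts of the same week stood near Con. The comparisons of CAC with Con, CAC with NCAC and NCAC with Con share libraries, so their values are given side by side. Against NCAC, 1048 genes were higher in CAC (8.9%) and 914 lower (7.76%), 16.7% in all, and on TPM as deposited 1769 and 293 with a median shift of 0.08. The count of lower genes was 537 without CAC replicate 2 and 592 without NCAC replicate 2. NCAC against Con gave 1 gene by limma, 0.00849% of those tested, with 180 at an unadjusted p below 0.05. That gene was Fmo5, a flavin monooxygenase, at 3.44 ± 0.201 TPM in NCAC (SD, n = 5), against 5.18 ± 0.287 TPM in Con (SD, n = 4), with 4.77 ± 0.196 TPM in CAC (SD, n = 5). Its log2 difference between NCAC and Con was -0.48 (limma adjusted p = 0.00223).

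For the leading genes NCAC and Con were close. Serpina3n averaged 278 ± 367 TPM in CAC, 2.39 ± 1.04 TPM in NCAC (SD, n = 5 each) and 3.05 ± 1.64 TPM in Con (SD, n = 4), with log2 differences of 5.14 for CAC minus NCAC (limma adjusted p = 0.00122) and -0.23 for NCAC minus Con. Ccl8 had log2 differences of 3.29 (limma adjusted p = 6.99e-05) and 0.38, Socs3 of 2.75 (0.000283) and 0.15, and Mt2 of 3.89 (0.00113) and -0.05. Apln averaged 8.53 ± 2.25 TPM in NCAC (SD, n = 5), with log2 differences of -2.09 (limma adjusted p = 0.00041) and 0.14. For some genes called against Con, NCAC lay between the other arms. Pdk4 had log2 differences of 0.87 for CAC minus NCAC (limma adjusted p = 0.185) and 0.64 for NCAC minus Con. Mfap4 and Acta2 had -0.83 and -0.94 for CAC minus NCAC (limma adjusted p = 0.0577 and 0.0569). The summed acute phase level was 294 to 1820 TPM in CAC, 151 to 179 TPM in NCAC and 145 to 197 TPM in Con. The summed macrophage level was 457 to 635 TPM in CAC, 270.4 to 364 TPM in NCAC and 288 to 392 TPM in Con.

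Across the time course, week 4 fell between a week with few calls and later weeks with many. In a fit over 61 libraries, CAC against Con gave 59 calls at week 2 (0.501% of genes tested), 1812 at week 4 (15.4%), 4356 at week 6 (37%) and 6089 at week 8 (51.7%). Genes higher in CAC were 0.458, 8.4, 18.6 and 25.1% of those tested at weeks 2, 4, 6 and 8, and genes lower in CAC 0.0424, 6.98, 18.3 and 26.6%. Each week used other animals, and CAC and Con together had 10, 9, 10 and 12 libraries at weeks 2, 4, 6 and 8. The genes tested were those that passed the filter on the week 4 libraries. The counts of the weeks are therefore not fully alike. Of the 54 genes higher at week 2, 92.6% (50) were higher at week 4 too, which was 5.05% of the 990 higher at week 4. Of these 990, 80.3% (795) were higher at week 6, 36.2% of the genes higher there, and 85.9% at week 8, 28.8% of those higher there. Of the 822 lower at week 4, 78.5% were lower at week 6, 29.8% of the genes lower there, and 86.3% at week 8, 22.6% of those lower there. Of the genes higher at week 4, 3 had a call in the opposite direction at week 6 and 6 at week 8, and of those lower 0 at week 6 and 4 at week 8.

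The log2 difference of Serpina3n was 1.50 at week 2, 4.91 at week 4, 7.56 at week 6 and 8.31 at week 8. For Mt2 it was 1.93, 3.84, 5.15 and 5.98 at these weeks, for Socs3 1.10, 2.90, 3.85 and 3.70, and for Kcnip2 -0.28, -0.90, -1.92 and -2.04. Not every call at week 4 stood later. Ephb1 had -0.29 at week 6 (limma adjusted p = 0.596) and -0.69 at week 8 (0.112). Pdk4 had -0.40 at week 6 and -0.92 at week 8. In the fit over 61 libraries, whose week 4 counts differ from those of the fit over 14 libraries given above, the acute phase list had 2 genes higher at week 2, 13 at week 4, 17 at week 6 and 17 at week 8, with 0 lower at each. The fatty acid list in this fit had 0 higher and 0 lower at week 2, 10 and 0 at week 4, 3 and 14 at week 6, and 4 and 23 at week 8. The mitochondrially encoded genes had 0, 0, 12 and 12 lower of 13 at the 4 weeks.

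The difference between weeks was itself tested. For week 4 minus week 2, 0 genes were called by limma in either direction (0%), with 1191 at an unadjusted p below 0.05, and 5 were higher without CAC week 2 replicate 3. For week 6 minus week 4, 21 genes were called (0.178%), 10 with a more positive (0.0849%) and 11 with a more negative difference at week 6 (0.0934%). The thioesterase gene Acot2 at week 4 averaged 36.0 ± 5.68 TPM in the CAC libraries (SD, n = 5), against 27.2 ± 2.72 TPM in the Con libraries (SD, n = 4), and at week 6 it averaged 21.4 ± 3.97 TPM in CAC and 35.6 ± 6.62 TPM in Con (SD, n = 5 each). Its log2 difference of 0.38 at week 4 was -0.71 at week 6, a change of -1.09 (limma adjusted p = 0.0172). The peroxisomal catalase gene Cat changed by -0.65 (limma adjusted p = 0.0129), and Hadhb, a subunit of the mitochondrial trifunctional protein, by -0.64 (limma adjusted p = 0.0172). Clu changed by 1.49 and Scd1 by 1.05, with Scd1 at -0.40 at week 4 and 0.65 at week 6. With single libraries of weeks 4 and 6 left out, 19 fits in all, Cat kept its call in each and Scd1 lost it in 1, without Con week 6 replicate 3 (limma adjusted p = 0.0534). Acot2 lost it in 2, without that library or Con week 4 replicate 5, and Hadhb in 3, without these or CAC week 6 replicate 1 (limma adjusted p up to 0.0572 for both genes). Clu lost it in 12 (limma adjusted p up to 0.121), and kept it without CAC week 4 replicate 2, its highest library at that week. The counts were 0 and 1 without Con week 6 replicate 3, 26 higher without CAC week 4 replicate 2 and 26 lower without CAC week 6 replicate 5.

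**Figure D5:**
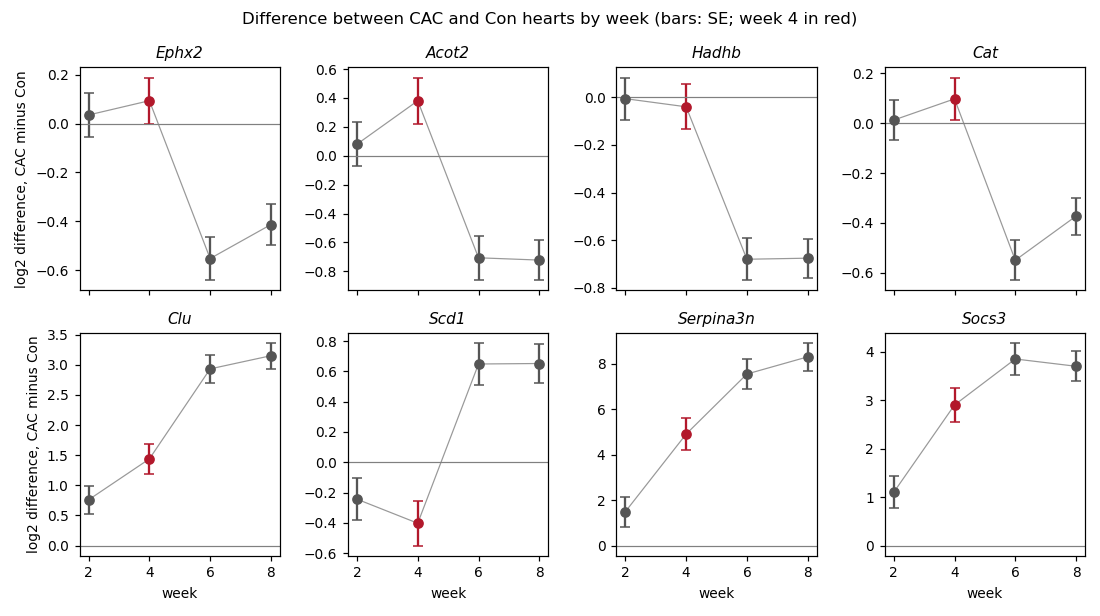
Log2 difference, CAC minus Con, with its SE at weeks 2, 4, 6 and 8 from the fit over 61 libraries, for Ephx2, Acot2, Hadhb, Cat, Clu, Scd1, Serpina3n and Socs3, with week 4 in red. Acot2 is at 0.38 at week 4 and -0.71 at week 6, whereas Serpina3n goes on to 8.31 at week 8.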

How the data were processed

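RNA from whole hearts was extracted with Trizol, made into stranded TruSeq mRNA libraries and read on a NovaSeq machine, per the labels' protocols. The authors deposited TPM for 47643 gene symbols in 62 libraries, of which 24270 were 0 in all. The build is mm10 per the submitters' processing notes. Aligner, counter, annotation and use of strand in counting are not given in the sources used here, so overlapping and antisense genes cannot be told apart. Depth is unknown. Groups and replicate numbers come from the labels, and no column was left unused. GENCODE M21 supplied coordinates and gene types for the 45134 symbols it holds.

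Libraries other than Con week 4 replicate 2 were rescaled by the median of ratios over 14527 genes above 0 in all 61. Genes with at least 1 rescaled TPM in at least 4 of the 9 CAC and Con libraries were kept (11779). Log2(rescaled TPM + 1) was fitted with limma 3.58.1 (trend, R 4.3.3) over the 14 week 4 libraries, or over 61 libraries for other weeks and differences between weeks, with Benjamini-Hochberg adjustment and a threshold of 0.05. The fit was tested on simulated data. Lists got counts and medians and no test.

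The members and lists were chosen with earlier results of these data known. The text names the 12 largest rises and falls whose mean reached 1 TPM in CAC or Con and whose ranges were apart, leaving out predicted genes, pseudogenes and ribosomal RNAs, up to 4 members of each list by p (every called member of lists with 5 or fewer), a panel of cardiac, atrophy, metabolic, clock and matrix genes, and the 4 largest rises and falls of other contrasts. Some genes that these rules take are withheld and not reported here. Other genes, including members named as not called, were chosen after their values were seen. Alternatives were a pseudocount of 0.1, no filter, a filter of 5 TPM, TPM as deposited, array quality weights, scaling without mitochondrially encoded and haemoglobin genes, the replicate number as a block, the degraded library kept in, the compared groups alone, all 61 libraries and each library left out. Promoters came from RefSeq (GRCm38.p6).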

Additional observations from a re-analysis of the deposited data

Results flagged for a closer look

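Among 324 groups of 4 or 5 libraries (161 genes and the mitochondrially encoded share, in CAC and in Con), 15 held 1 library far from the rest, where chance gives about 1 in 20. CAC replicate 2 was such a library in 6 groups. It stood high for Clu (651 TPM), Hp (4.31 TPM), Rpl12 (108 TPM), Rps20 (74.7 TPM) and Rps16 (244.7 TPM) and low for Rgs5 (153.7 TPM). CAC replicate 4 stood apart for Igf1r (6.63 TPM). Con replicate 1 was low for Mt2 (10.8 TPM, with the other Con libraries at 43.5 to 53.5 TPM) and Osmr (2.07 TPM) and high for Il1r1 (4.67 TPM). Con replicate 4 stood apart for Scd1 (7.25 TPM), mt-Nd2 (34416 TPM) and Pecam1 (63.7 TPM). Con replicate 5 stood apart for Ankrd1 (722 TPM) and Rps9 (232 TPM).

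For the following genes the log2 difference between CAC and Con differed between weeks 6 and 4, by a test of the difference itself. The week 6 value minus the week 4 value was -1.31 for the nicotinic receptor gene Chrna2, -1.09 for Acot2, -0.97 for Gm10557, -0.65 for Cat, -0.65 for the epoxide hydrolase gene Ephx2 and -0.64 for Hadhb. The same quantity was -0.59 for Etfdh, which passes electrons from fatty acid oxidation to the respiratory chain, -0.53 for the malic enzyme gene Me1, -0.53 for Hadha, the partner of Hadhb, and -0.49 for Asb14. It was positive, at 1.49 for Clu, 1.05 for Scd1, 0.93 for Mctp1, 0.84 for Arrb1, 0.61 for the asparagine synthetase gene Asns, 0.39 for Ddost, 0.36 for the cathepsin gene Ctsa, 0.25 for Sec13, 0.25 for Atp6ap1 and 0.23 for Copg1. Cat alone among the named genes kept its call in all 19 fits that left out a library of weeks 4 or 6. Asns, Ddost, Sec13 and Copg1 serve amino acid synthesis and the secretory pathway, as background. Gm10557 was chosen after its values were seen.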

How the results depend on the processing

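The CAC and Con libraries of a replicate number did not deviate together (correlations 0.37, -0.14, 0.20 and -0.30 for numbers 1, 3, 4 and 5), so the numbers are not taken as pairs. With a replicate block, CAC against Con gave 573 genes higher and 351 lower, and 40 of the 161 genes examined lost their call. TPM as deposited gave 1616 higher and 253 lower against Con and 1769 and 293 against NCAC. With the degraded Con replicate 2 kept in, the counts were 407 and 129 against Con and 320 and 82 against NCAC, and compared groups alone gave 499 and 329 against Con. The 1 lower gene of NCAC against Con was 0 as deposited, with the block, with the degraded library, with the groups alone and over 61 libraries. For week 4 minus week 2, the filter of 5 TPM gave 1 higher, no filter 1 lower and quality weights 3 higher and 1 lower. For week 6 minus week 4, the higher count was 6 with a pseudocount of 0.1, 6 with no filter, 21 as deposited, 5 with scaling without mitochondrially encoded and haemoglobin genes, 276 with quality weights, 34 with the degraded library and 6 with the groups alone. The lower count was 7 with no filter, 6 as deposited, 183 with quality weights and 27 with the degraded library. The cause of these moves was not tested. Of the genes examined 9 changed sign, all with the degraded library kept in, namely Hspd1 (0.14), Kcnj5 (0.054), Ryr2 (0.22), Pfkm (0.14), Slc2a4 (0.067), Psma1 (0.0094), Rps20 (-0.068), Rps16 (-0.066) and Rpl3 (-0.021).

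Leaving out single libraries gave 511 to 983 higher and 321 to 914 lower against Con, 746 to 1125 higher and 537 to 1036 lower against NCAC, 0 to 1 higher and 1 to 1 lower for NCAC against Con, 0 to 5 higher and 0 to 0 lower for week 4 minus week 2, and 0 to 26 higher and 1 to 26 lower for week 6 minus week 4. The difference in mitochondrially encoded share was -3.80 to -2.88 percentage points (exact permutation p of 0.0179 or 0.0286, the smallest these splits allow) and -9.72 with the degraded library. Of 161 genes examined 138 were called, and 80 kept the call with every library left out in turn. Among the libraries left out, losses were most common without Con replicate 4 (49 genes). With the compared groups alone 48 of the 161 genes lost the call, and with no filter 33. With the degraded library kept in 56 lost it and 9 changed sign. As deposited 21 lost and 4 gained the call. The replicate settings for single genes of week 6 minus week 4 and of the GTPases against NCAC were chosen after seeing the data. TPM without depth gives no limit of detection.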

Other observations

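The interferon-gamma induced GTPases, which defend cells against intracellular pathogens, were called in the comparison of CAC with NCAC hearts, which shares its CAC libraries with the comparison with Con. Of 14 that passed the filter, 7 were lower and 0 higher in CAC against NCAC, where 7.76% of all genes tested were lower, and the median log2 difference was -0.63. Gbp4 had 1.11 to 3.78 TPM in CAC, 4.75 to 6.9 TPM in NCAC and 2.14 to 5.38 TPM in Con, with a log2 difference between CAC and NCAC of -1.07 (limma adjusted p = 0.0054). Gbp3, chosen after its values were seen like Gbp7, Tgtp1 and Tgtp2, had 1.42 to 4.89 TPM in CAC, 6.04 to 10.5 TPM in NCAC and 2.57 to 7.87 TPM in Con (log2 difference -1.20, limma adjusted p = 0.00761). Gbp5 had 1.13 to 1.83 TPM in CAC and 2.42 to 3.6 TPM in NCAC (log2 difference -0.66, limma adjusted p = 0.0044), Gbp2 fell by 0.61 (limma adjusted p = 0.00994) and Tgtp1 by 1.39 (limma adjusted p = 0.0132). These 5 calls held with each CAC or NCAC library left out in turn. Gbp7 fell by 0.73 (limma adjusted p = 0.0234, lost in 3 of 10 such fits, those without CAC replicate 4 or NCAC replicate 1 or 4) and Tgtp2 by 1.41 (limma adjusted p = 0.0353, lost in 8 of 10, and kept without replicate 5 of either group). Against Con 0 of the 14 were called by limma, with 1 higher and 4 lower at an unadjusted p below 0.05. NCAC against Con gave a median of 0.48 over the 14 and 0 calls. These are families of similar copies, so single members are uncertain.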
